A study of Heliconius erato cyrbia and Heliconius erato demophoon with 32 samples.

Results

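In the pupal wing of the butterfly Heliconius erato, 40 annotated loci were already expressed at 50% of pupal development and stood 4 to 16-fold higher at 70%. They were chosen by the counts themselves. An annotated locus entered when its mean level was 10 CPM or more (counts-per-million of the column total of a library) in each of the 4 groups at 50%, and when the ratio of the 70% to the 50% mean lay from 4 to 16 in both subspecies and both wing regions. Of 24118 loci in the table, 13055 carried a gene model of the reference annotation, 4233 of those met the first condition, and 40 met both. These 4233 loci are called the expressed annotated loci below, and serve as the comparison for the 40. The rise between stages selected the loci, so it is described here without a test, and the tests concern the subspecies, the wing regions and the sexes. The rule still bounds the subspecies and region comparisons. A locus low in any group at 50% is left out. The limits of 4 and 16 also bound how far a subspecies or region difference can change between stages.

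RNA-seq libraries came from 16 animals of captive populations, 4 for each combination of subspecies and stage. H. e. cyrbia is iridescent blue, and H. e. demophoon is matt black without iridescence. Each animal gave 2 libraries, one from the forewing and posterior hindwing together (the main wing) and one from the anterior hindwing, which bears another type of scale. Animals 1 to 4 were cyrbia at 50% (2 males, 2 females), animals 5 to 8 demophoon at 50% (1 male, 3 females), animals 9 to 12 cyrbia at 70% (4 males) and animals 13 to 16 demophoon at 70% (1 male, 3 females). No group carried a treatment or an introduced allele, and the animals were the replicates. Library numbers 1 to 16 were all from 70% and 17 to 32 all from 50%, so stage and the order of the libraries cannot be told apart. Total counts ran from 9330883 to 68986011 per library, and the lowest count of any of the 40 loci in any library was 60.

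A butterfly wing is covered by scales, each secreted by a single epidermal cell. Through the middle of pupal life the scale cells send out flattened projections stiffened by bundles of actin, and later they lay down the ridged cuticle and take up pigment. In iridescent Heliconius the blue comes from the layered structure of the ridges rather than from a pigment. The loci here are known only by assembly and gene model numbers: 0 of the table's IDs matched the 14137 genes of the reference table at hand (assembly Hedem_Duke_1.1), so no gene name, role or sequence is given, and the labelled tissue could not be checked against marker genes. As the libraries are bulk tissue, a higher level can reflect more cells of a type or more RNA per cell, and these cannot be told apart.

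The 40 loci together held on average from 0.217% to 0.242% of the wing's counts at 50%, and from 1.66% to 1.94% of them at 70%. In the main wing the share was 0.217% ± 0.0241 (SD, n = 4) in cyrbia and 0.224% ± 0.0086 in demophoon at 50%, and 1.94% ± 0.308 and 1.93% ± 0.397 at 70%. In the anterior hindwing it was 0.229% ± 0.0368 and 0.242% ± 0.0096 at 50%, and 1.66% ± 0.232 and 1.86% ± 0.0875 at 70%. The median ratio of stages over the 40 loci was 7.26 in the cyrbia main wing, 5.63 in the cyrbia anterior hindwing, 7.19 in the demophoon main wing and 7.04 in the demophoon anterior hindwing. At 33 of the 40 loci every library at 70% stood above every library at 50%. The rule chose the loci by the ratio of these stages, which favours such a separation. The same count was not taken over the expressed annotated loci, so it is a description only. Among the 4233 expressed annotated loci, 2588 stayed within a ratio of 0.5 to 2 in every subspecies and region, 104 fell 4 to 16-fold in all of them, and 8 rose more than 16-fold in all.

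**Figure D1:**
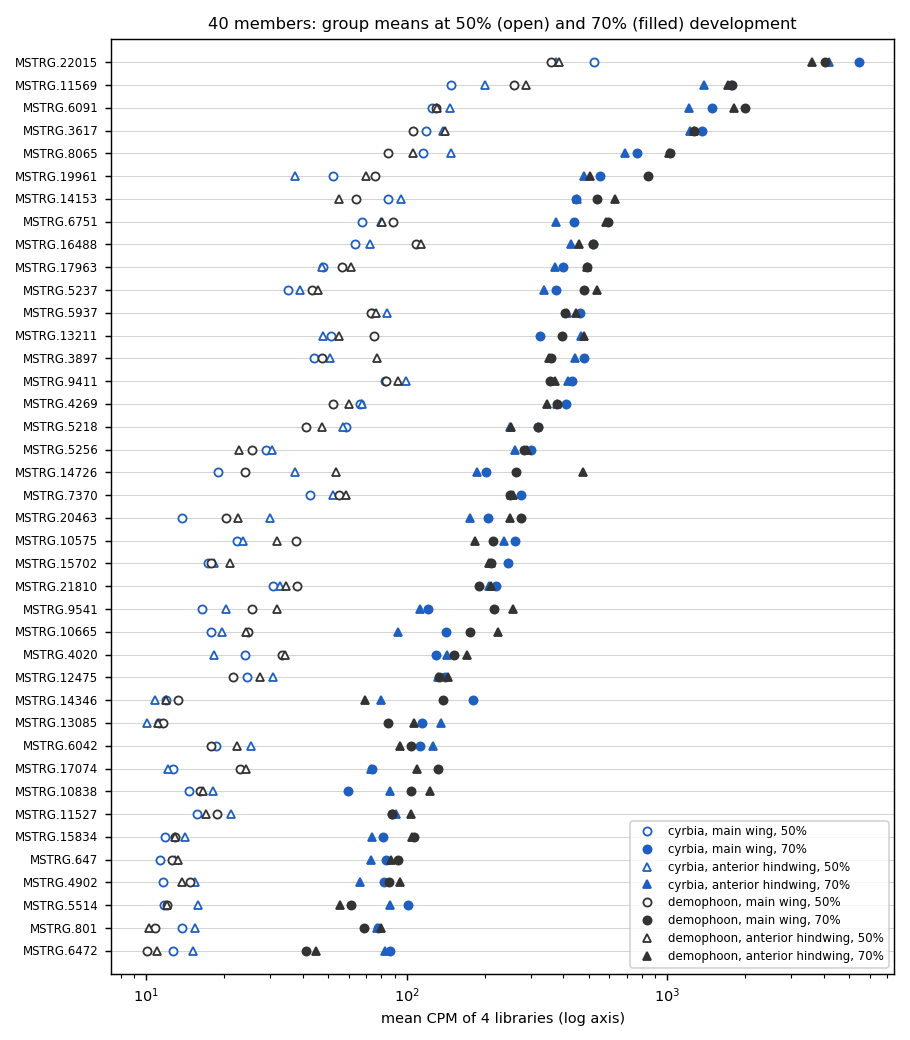
Mean CPM (log axis) of each of the 40 loci in the 8 groups of 4 libraries, with open symbols for 50% and filled symbols for 70% development, circles for the main wing, triangles for the anterior hindwing, blue for cyrbia and dark grey for demophoon. MSTRG.22015 stands highest at both stages, and at the lowest locus of the 70% order, MSTRG.6472, the filled cyrbia symbols lie above the filled demophoon symbols.

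The locus with the highest level at both stages was on the Z chromosome. MSTRG.22015 (gene model evm.TU.Herato2101.361) measured 422, 852, 264 and 556 CPM in the main wings of the 4 cyrbia animals at 50%, and 337, 307, 399 and 389 CPM in those of demophoon. At 70% the main wings measured 5807, 4278, 5214 and 6481 CPM in cyrbia and 2653, 4898, 4567 and 4069 CPM in demophoon. The cyrbia animals at 50% spread 3.28-fold and those of demophoon 1.15-fold (highest over lowest animal, mean of both regions), and neither stage showed a called difference between the subspecies. With MSTRG.22015 left out, the share of the other loci in the main wing at 70% was 1.39% ± 0.229 in cyrbia and 1.52% ± 0.311 in demophoon (SD, n = 4).

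The next 5 loci by their level at 70% were MSTRG.11569 on chromosome 12, MSTRG.6091 on 7, MSTRG.3617 on 4, MSTRG.8065 on 9 and MSTRG.19961 on 19. Over the 16 libraries of each stage, MSTRG.6091 averaged 133 CPM at 50% and 1625 CPM at 70%, and MSTRG.3617 averaged 126 and 1280 CPM. MSTRG.8065 averaged 114 and 874 CPM, and MSTRG.19961 averaged 58.8 and 597 CPM. At 70% the 4 highest loci averaged 1280 CPM or more, 27 others lay above 100 CPM, and 9 lay at or below 100 CPM. The lowest was MSTRG.6472 on chromosome 7, with 12.2 CPM at 50% and 63.8 CPM at 70%.

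The limits of the rule passed through a continuous range of values. Just inside the lower limit were MSTRG.9411, with a lowest ratio of 4.02, and MSTRG.16488 with 4.06, while MSTRG.16928 (3.998) and MSTRG.12938 (3.995) fell just outside. Just inside the upper limit were MSTRG.6091, with a highest ratio of 15.3, and MSTRG.14346 with 15.1, while MSTRG.16063 (16.2) and MSTRG.12021 (16.7) fell just outside. MSTRG.6472 had the lowest group mean at 50% among the 40 (10.1 CPM), and MSTRG.20092 (9.43 CPM) was left out by that condition alone. With animals left out one at a time, the rule gave 34 to 46 loci, and 13 of the 40 were kept in all 16 cases.

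The loci were scattered over the genome. Chromosomes, read from the scaffold names, held at least 1 of them in 20 of 21 cases, with 5 each on chromosomes 6 and 7, 2 on the Z and 0 on chromosome 2. No pair were direct neighbours among annotated loci. The closest were MSTRG.5218, MSTRG.5237 and MSTRG.5256 on scaffold Herato0606, at 12 and 13 annotated loci apart, followed by MSTRG.11527 and MSTRG.11569 on Herato1202 at 17. Assembly joined 2 gene models at MSTRG.21810 and MSTRG.10665 and 3 at MSTRG.11527 and MSTRG.10838, and the other 36 loci had 1 model each.

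The first comparison asks whether the loci differ between the iridescent and the matt subspecies. Few were called, from 0% to 7.5% of the 40 beside 4.49% to 6.14% of the expressed annotated loci. None was called in more than 1 region or stage. A single call among 40 is 2.5%, so these shares are not read as a difference from the other loci. In the main wing, 1 of the 40 loci was called at 50%, where 9.69% of all loci tested and 4.49% of the expressed annotated loci were called, and 2 were called at 70%, where 9.17% of all loci and 5.74% of the expressed annotated loci were called. In the anterior hindwing, 0 were called at 50% against 11.4% of all loci and 5.5% of the expressed annotated loci, and 3 at 70% against 9.64% and 6.14%. The 4 cyrbia animals at 70% were male and 3 of 4 demophoon animals female, so subspecies and sex were nearly confounded there. With sex in the model, main wing calls at 70% fell from 1420 to 693 of 15485 loci tested. Among the 40 they fell from 2 to 0. A call is a false discovery rate (FDR, Benjamini-Hochberg over all loci tested) below 0.05 in edgeR's quasi-likelihood test on the counts. At an unadjusted p below 0.05 the counts of the 40 were 3 and 2 in the main wing at 50% and 70%, where 25% and 24.1% of all loci tested reached that level, and 3 and 5 in the anterior hindwing, where 27.4% and 26.3% did. DESeq2 called 1 and 2 of the 40 in the main wing, beside 17.1% and 16.1% of all loci, and 1 and 5 in the anterior hindwing, beside 20.4% and 18.6%.

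No locus was called in both wing regions, so the 6 loci named next were picked after their values were seen. MSTRG.5218, on chromosome 6, measured 55.6, 64.0, 67.2 and 47.8 CPM in the cyrbia main wing at 50%, and 43.5, 36.5, 40.2 and 44.8 CPM in demophoon. All 4 cyrbia animals stood above all 4 of demophoon, with group means of 58.7 and 41.3 CPM of library totals. The fitted difference, with edgeR's TMM scaling of the libraries, was 0.74 on the log2 scale (SE 0.19, FDR 0.0242 in edgeR). In the anterior hindwing of the same animals the groups were also apart, at 53.7 to 61.1 CPM in cyrbia and 41.5 to 53.1 CPM in demophoon. The fitted difference of 0.32 there was not called (FDR 0.27 in edgeR). At 70% the ranges overlapped in both regions. The call at 50% was lost without animal 3, 5, 6, 7 or 8 (FDR up to 0.0714 in edgeR) and when library totals replaced the TMM factors (FDR 0.2), a scaling that moves the median of all loci in this comparison by -0.21.

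MSTRG.6472, on chromosome 7, was the one locus called higher in cyrbia at 70%. Its main wings measured 68.0, 125, 79.6 and 73.1 CPM in cyrbia and 29.7, 48.6, 37.7 and 48.3 CPM in demophoon. The groups did not overlap, and the difference was 1.08 on the log2 scale (SE 0.25, FDR 0.0158 in edgeR). The anterior hindwings pointed the same way, with 46.3, 144, 63.2 and 76.7 CPM in cyrbia and 40.2, 72.9, 34.7 and 32.4 CPM in demophoon, without a call (0.89, FDR 0.0676). All 4 cyrbia animals at 70% were male and 3 of 4 demophoon animals were female, and with sex in the model the main wing FDR was 0.0993. The call was also lost without animal 10, 13 or 15 (FDR up to 0.0549 in edgeR).

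The other 4 loci were lower in cyrbia at 70%. MSTRG.10838, on chromosome 11, measured 62.9, 53.1, 74.4 and 48.3 CPM in the cyrbia main wing and 76.0, 100, 151 and 88.8 CPM in demophoon, a difference of -0.80 (SE 0.23, FDR 0.0418 in edgeR). The groups did not overlap, but the call was lost without any 1 of animals 5 and 7 to 15 (FDR up to 0.136), with sex in the model, with no filter on low counts and with library totals as scaling. In the anterior hindwing MSTRG.5237 measured 361, 302, 331 and 356 CPM in cyrbia against 668, 516, 567 and 398 CPM in demophoon, a difference of -0.63 (FDR 0.0242 in edgeR). MSTRG.5237 also stood lower, in CPM of column totals, in every cyrbia library than in every demophoon library of the same region at 50%. The main wings measured 33.2 to 37.1 against 39.8 to 46.6 CPM, and the locus was not called at that stage. Column totals move the median of all loci in that main wing comparison by -0.21 against the TMM factors. The factor was 0.838 for animal 3 (33.2 CPM) and 1.05 for animal 6 (39.8 CPM). Divided by these factors, animal 3 of cyrbia would stand above animal 6 of demophoon, so the main wing groups would overlap.

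MSTRG.9541, on chromosome 10, measured 201, 74.7, 94.3 and 78.9 CPM in the cyrbia anterior hindwing at 70% and 177, 329, 264 and 259 CPM in demophoon, a difference of -1.15 (SE 0.30, FDR 0.0255 in edgeR). Animal 9 of cyrbia lay inside the demophoon range. At MSTRG.10665, on chromosome 11, the values were 49.8, 98.8, 162 and 58.8 CPM against 209, 169, 387 and 131 CPM, a difference of -1.25 (SE 0.34, FDR 0.0318 in edgeR) with animal 11 of cyrbia inside the demophoon range. The call at MSTRG.5237 was lost without animal 10, 11 or 13, that at MSTRG.9541 without animal 10, 11, 12, 14 or 16, and that at MSTRG.10665 without animal 9, 10, 12, 13 or 15. With only the libraries of the stage in the fit none of the 3 was called, and with sex in the model 1 was, MSTRG.10665. With library totals as scaling MSTRG.10665 was not called (FDR 0.0501 in edgeR).

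**Figure D2:**
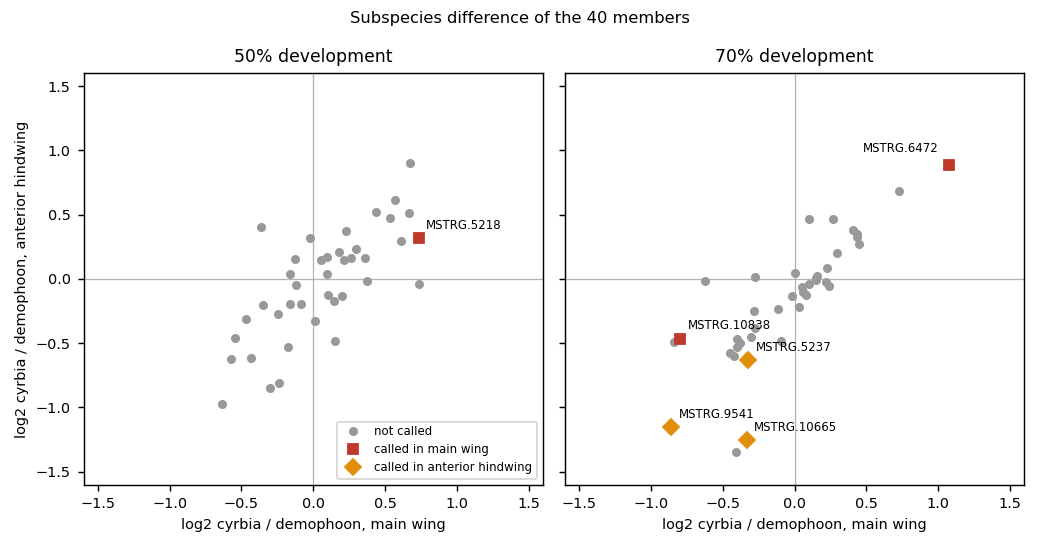
Log2 ratio of cyrbia to demophoon for the 40 loci in the main wing (horizontal axis) and the anterior hindwing (vertical axis), at 50% on the left and 70% on the right. Squares mark loci called in the main wing and diamonds loci called in the anterior hindwing, and most loci lie within 0.5 of 0 on both axes.

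Counted by direction, 16 of the 40 loci were higher in cyrbia in both regions at 50%, 13 were lower in both and 11 differed in sign between the regions. At 70% the counts were 13, 18 and 9. Both regions come from the same animals, so these counts describe the animals and are not independent evidence of direction. The median difference of the 40 in the main wing was 0.10 on the log2 scale at 50% and 0.02 at 70%, beside 0.14 and 0.05 over the expressed annotated loci, and in the anterior hindwing it was 0.01 and -0.08 beside 0.08 and 0.03. In CPM of column totals, groups of 4 animals did not overlap at 10% of the 40 loci in each region at 50%. At 70% they did not overlap at 5% in the main wing and at 10% in the anterior hindwing. The same shares over the expressed annotated loci were 9.71%, 8.88%, 8.24% and 12%.

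The second comparison sets the main wing against the anterior hindwing of the same animal. MSTRG.14346, on chromosome 14, was higher in the main wing at 70% in both subspecies, and it was the only one of the 40 called in each. In cyrbia the main wings measured 122, 12.8, 332 and 252 CPM and the anterior hindwings of the same animals 52.3, 7.33, 156 and 104 CPM. In demophoon the main wings measured 117, 63.0, 340 and 29.7 CPM and the anterior hindwings 66.8, 24.1, 175 and 10.4 CPM. The level differed 24.2-fold between the cyrbia animals and 12.9-fold between those of demophoon, while the main wing was the higher region in 8 of 8 animals. The difference was 1.13 on the log2 scale in cyrbia (SE 0.18, FDR 0.00699 in edgeR with the animal as a block) and 1.21 in demophoon (SE 0.18, FDR 0.00466). Without animal 12 the FDR in cyrbia was 0.0634, and the demophoon call held with each of the 16 animals left out (FDR up to 0.0477). At 50% the 2 regions lay at 4.40 to 19.5 CPM over both subspecies, with no call.

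The annotated locus next to it, MSTRG.14347 (gene model evm.TU.Herato1408.197, beside evm.TU.Herato1408.198 of MSTRG.14346), was looked at after these values were seen. It is not one of the 40, because it had 0 counts in all 16 libraries at 50%, where a count of 0 allows up to 3 counts or at most 0.322 CPM per library. At 70% its main wings measured 253, 8.57, 516 and 297 CPM in cyrbia and 283, 101, 760 and 47.2 CPM in demophoon. Its anterior hindwings measured 89.0, 0, 243 and 128 CPM in cyrbia and 136, 21.1, 427 and 2.89 CPM in demophoon. The animals with the least MSTRG.14346 (10 in cyrbia, 16 in demophoon) also had the least MSTRG.14347, and MSTRG.14347 was likewise higher in the main wing in 8 of 8 animals. Strand use in counting was not given in the sources used here, so whether reads of neighbouring loci were kept apart is not known.

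MSTRG.3897, on chromosome 5, was called at the other stage and in the other direction. In demophoon at 50% its main wings measured 47.0, 39.5, 22.8 and 80.8 CPM and the anterior hindwings of the same animals 102, 82.5, 41.0 and 84.2 CPM. The main wing was lower in 4 of 4 animals, by -0.77 on the log2 scale (SE 0.13, FDR 0.0373 in edgeR), although animal 8 differed by only -0.06 in log2 CPM. In cyrbia at 50% it was lower in 3 of 4 animals without a call, and at 70% 7 of the 8 animals lay between 0.01 and 0.22 in log2 CPM and animal 13 at -0.41. The call was lost without any 1 of animals 5, 6, 7, 9 and 11 to 16 (FDR up to 0.214 in edgeR), and with library totals as scaling.

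**Figure D3:**
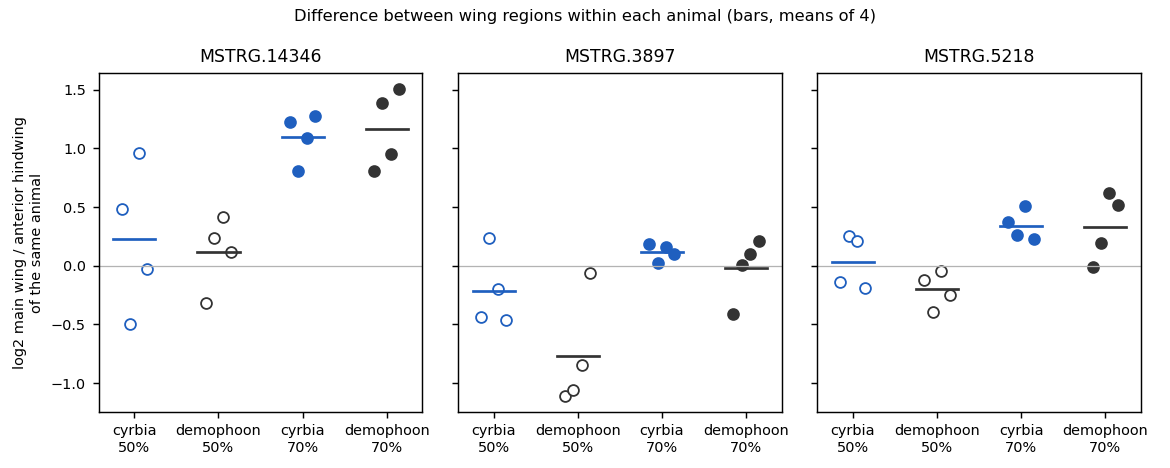
Log2 ratio of main wing to anterior hindwing CPM within each animal at 3 loci, with 1 point per animal, bars at the mean of 4, open symbols for 50% and filled symbols for 70%. All 8 animals at 70% lie above 0 at MSTRG.14346, and all 4 demophoon animals at 50% lie below 0 at MSTRG.3897.

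In all, 0 of the 40 loci were called between regions in cyrbia at 50%, where 0.186% of all loci were called, 1 in cyrbia at 70% (0.252%), 1 in demophoon at 50% (0.0985%) and 1 in demophoon at 70% (0.367%). At an unadjusted p below 0.05 the counts of the 40 in the same order were 7, 9, 10 and 5, beside 11.1%, 10.3%, 7.59% and 10.3% of all loci. DESeq2 called 3, 4, 1 and 3 of the 40, beside 2.77%, 2.54%, 1.46% and 3.75% of all loci. MSTRG.5218 was near the threshold in both subspecies at 70%, at 0.37 in cyrbia (FDR 0.0749 in edgeR) and 0.38 in demophoon (FDR 0.062). In cyrbia at 70% 33 of the 40 loci had a higher fitted level in the main wing, with a median difference of 0.16 on the log2 scale, while 44.2% of the expressed annotated loci did, with a median of -0.03. In demophoon at 70% 20 of the 40 did, with a median of 0.00 (expressed annotated loci 37.3%, median -0.07). At 50% the counts were 19 of 40 in cyrbia (expressed annotated loci 54.1%) and 13 of 40 in demophoon (45.9%). All loci of a group share the same 4 animals, so these counts describe the animals and are not independent evidence of direction.

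Whether the region difference itself differed between subspecies was tested as an interaction. At 50%, 0 of the 40 loci were called (0.0274% of all loci) with 6 at an unadjusted p below 0.05 (8.26% of all loci), and at 70% 0 were called (0.00547% of all loci) with 1 at that level (3.88% of all loci), all in edgeR with the animal as a block (DESeq2 was not run on the interaction). The sexes, compared within groups in the main wing, gave 0 calls among the 40 in edgeR and 0 in DESeq2, which called 0.0129% and 0.136% of all loci. An unadjusted p below 0.05 was reached in edgeR by 4 of the 40 and by 2.74% of all loci. The males were few in demophoon and there was no female in cyrbia at 70%, so the precision of that comparison is low.

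Animals of 1 group often differed more at these loci than the subspecies did, and both wing regions of an animal tended to deviate together. The SD of the 4 animals (log2 CPM, mean of both regions) had a median over the 40 loci of 0.53 in cyrbia and 0.30 in demophoon at 50%, and of 0.53 and 0.34 at 70%. Over the expressed annotated loci the same medians were 0.33 and 0.23 at 50%, and 0.25 and 0.27 at 70%. An SD above 1, on the log2 scale, was reached by 15% of the 40 in cyrbia at 50%, by 0% in demophoon at 50%, and by 10% in each subspecies at 70%, beside 7.44%, 1.68%, 3.59% and 2.83% of the expressed annotated loci. The median absolute difference between subspecies was 0.27 at 50% and 0.29 at 70%, beside 0.20 and 0.23 over the expressed annotated loci. The difference was below the larger of the 2 animal SDs at 28 of the 40 loci at 50% and at 29 at 70%. Against the mean of the 2 SDs it was below at 25 loci at each stage. These counts were not taken over the expressed annotated loci, so they are not read as a trait of the 40. Across the 40 loci, the deviations of an animal's main wing and anterior hindwing from their group means correlated with r from 0.326 (animal 5) to 0.939 (animal 10), as a description over loci that share libraries.

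**Figure D4:**
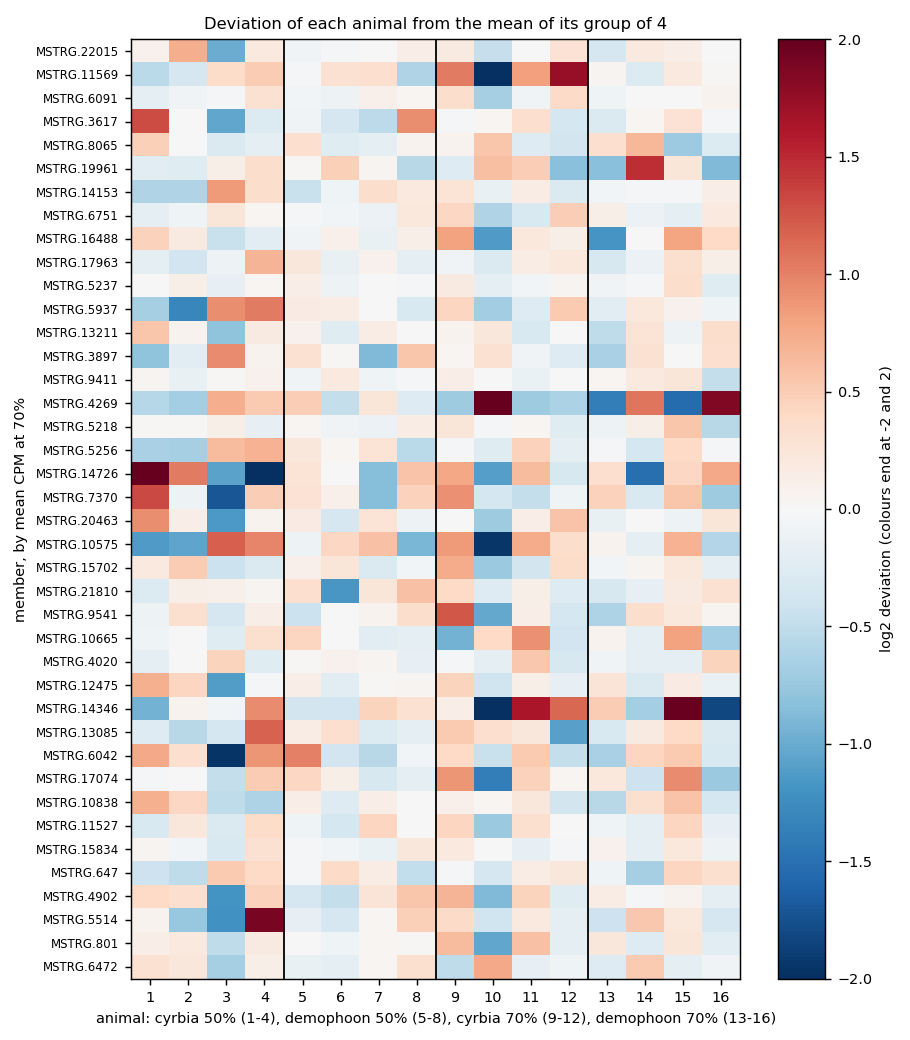
Log2 deviation of each of the 16 animals (columns, mean of both wing regions) from the mean of its group of 4, for the 40 loci ordered by their level at 70% (rows), with red above and blue below the group mean. Deviations beyond 2 in either direction fall in cyrbia animals 1 and 4 at MSTRG.14726 and in cyrbia animal 10 at MSTRG.11569, MSTRG.14346 and MSTRG.4269.

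The widest spread was at MSTRG.11569. In cyrbia at 70% its main wings measured 2045, 55.5, 1736 and 3223 CPM and its anterior hindwings 1526, 89.3, 1340 and 2587 CPM. Animal 10, the second of each series, was the lowest in both regions, below even the 16 libraries at 50% in its main wing (80.0 to 357 CPM over both subspecies). The other 7 animals at 70% all measured 1340 CPM or more. Between the highest and the lowest animal of cyrbia at 70% the fold was 40.1, against 1.41 in demophoon.

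MSTRG.4269, on chromosome 6, ran the other way in the same animal. In cyrbia at 70% animal 10 measured 1106 CPM in the main wing and 1065 CPM in the anterior hindwing, and the other 3 animals lay at 155 to 186 CPM and 138 to 163 CPM. In demophoon at 70% animals 14 and 16 measured 471 and 872 CPM in the main wing, and animals 13 and 15 measured 82.9 and 83.9 CPM. At 50% all 16 libraries lay at 32.8 to 114 CPM, so that the 2 low demophoon animals at 70% overlapped the earlier stage. Without animal 10, a choice made after seeing the data, the ratio of stages in cyrbia was 2.64 (main wing) and 2.23 (anterior hindwing), in place of 6.16 and 5.61, and the locus would not meet the rule.

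**Figure D5:**
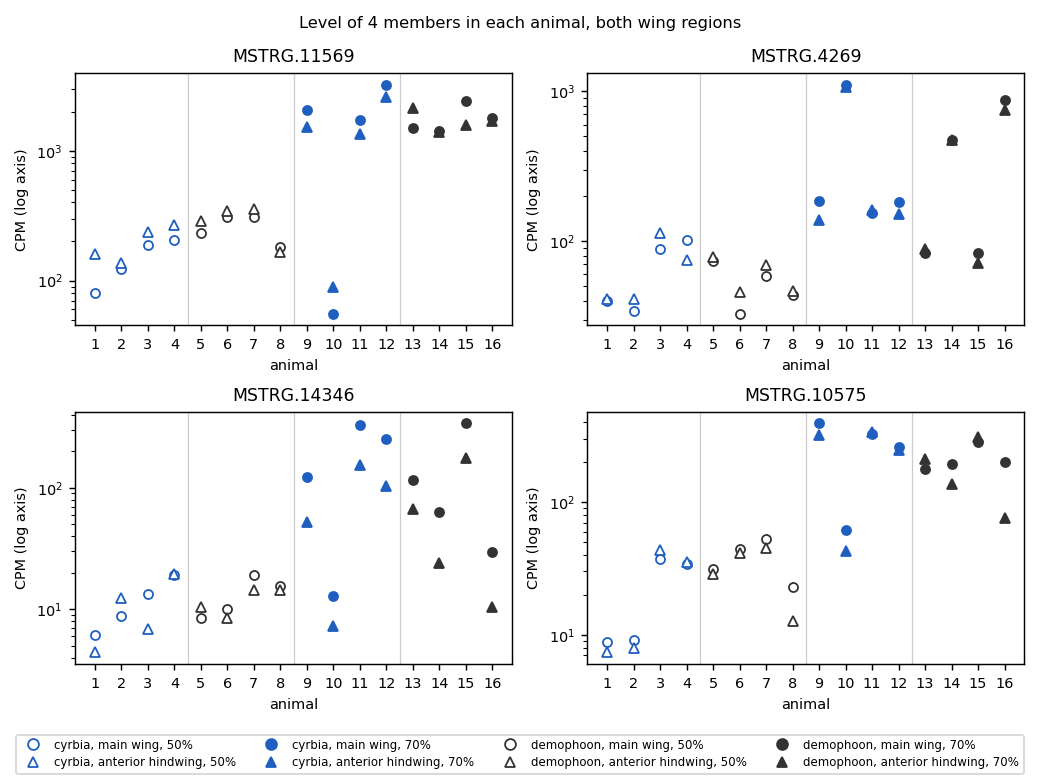
CPM (log axis) of 4 loci in the main wing (circles) and anterior hindwing (triangles) of animals 1 to 16, with open symbols for 50% and filled symbols for 70%. Animal 10 is the lowest cyrbia animal at 70% at MSTRG.11569, MSTRG.14346 and MSTRG.10575 and the highest at MSTRG.4269.

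Animal 10 was the lowest of the 4 cyrbia animals at 70% at 22 of the 40 loci and the highest at 6, while it was lowest at 20.9% and highest at 30.8% of the expressed annotated loci. It lay more than 2-fold below the mean of the other 3 animals at 9 of the 40 and more than 2-fold above at 2. Its median deviation over the 40 loci was -0.35 on the log2 scale, and the other 3 animals ran from -0.128 to 0.255. Over the 104 loci that fell 4 to 16-fold between stages it was 0.10, inside the range of the other 3 animals (-0.195 to 0.122). Over the expressed annotated loci it was 0.04. With that animal left out the median animal SD of the 40 in cyrbia at 70% was 0.32 (n = 3), beside 0.23 for the expressed annotated loci. The part of animal 10 in the subspecies and region calls is given with each of them, and what set it apart was not tested.

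In cyrbia at 50% the 4 animals divided by pairs at several loci. At MSTRG.10575, on chromosome 11, animals 1 and 2 measured 7.36 to 9.08 CPM over both regions and animals 3 and 4 measured 34.3 to 43.8 CPM. At MSTRG.5937 the ranges were 25.4 to 54.9 and 112 to 130 CPM, and at MSTRG.5256 they were 15.5 to 18.7 and 38.1 to 44.7 CPM. MSTRG.14726, on chromosome 14, ran the other way, with 115.8, 27.5, 4.03 and 2.08 CPM in the anterior hindwings of animals 1 to 4 and a 25.9-fold span between animals. Animals 1 and 2 had library numbers 25 to 28 and animals 3 and 4 had 21 to 24, and each pair held 1 male and 1 female. These pairs were seen in the data and were not tested.

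Set against the 50% mean of its own subspecies and region, each library at 70% held 25 to 39 of the 40 loci at 4-fold or more. The lowest numbers were those of animal 10, with 28 (main wing) and 25 (anterior hindwing), and the other libraries had 29 to 39. At 11 loci all 16 libraries were 4-fold or more above the 50% mean, and at 32 loci all 16 were 2-fold or more above it. At 8 loci at least 1 library lay under 2-fold, and at 2 of them, MSTRG.11569 and MSTRG.14346, at least 1 library lay below the 50% mean itself. The rule bounded the group ratios, so these counts describe only how single libraries lay around them.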

How the data were processed

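RNA was extracted from the wings of 16 pupae and 32 libraries were sequenced. Per the submitters' processing notes, reads were trimmed with Trimmomatic (v. 0.38), aligned with HISAT2 (v. 2.1.0), handled with SAMtools (v. 1.9) and assembled with StringTie (v. 1.3.5). The authors deposited raw counts per locus, not normalized, which StringTie derives from transcript coverage. The genome build, the annotation version and strand use were not given in the sources used here. All 32 columns of the table were mapped to samples by their labels.

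Levels are CPM of column totals. The 40 loci, the lists and the tests were chosen with earlier results of these data known. Counts were tested with edgeR (v. 4.0.16, limma v. 3.58.1, R v. 4.3.3) by robust quasi-likelihood fits with TMM factors and filterByExpr, on all loci passing the filter. Subspecies were compared in 1 fit of 4 group means over the 16 libraries of a region. Regions were compared in 1 fit of 32 libraries with the animal as a block. Both regions of a labelled animal pair by design, and their deviations from the group means over all loci correlated in every animal (r from 0.475 to 0.761). Sex was tested as an added term in the main wing. The scripts were tested on simulated data.

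Loci were named by a rule: the 6 with the highest CPM at 70%, those called between subspecies in both regions in the same direction, those called between regions, for the interaction or for sex, those nearest the limits of the rule, and any run of neighbouring loci. The called subspecies differences and the loci of wide animal spread fell outside it and were named after their values were seen. Alternatives were RLE factors, no filter, DESeq2 (v. 1.42.0), sex as a covariate, only the libraries of the stage or group, no replicate block, each animal left out, TMM-adjusted CPM for the rule and, added after seeing the data, library totals as scaling and levels without animal 10. Library totals ranged from 9330883 to 68986011, and the part of counting error in the spread among 4 animals was not separated.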

Additional observations from a re-analysis of the deposited data

Results flagged for a closer look

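In 176 groups of 4 libraries, at 21 named loci and for the summed share, 10 had a library far from the other 3 by Dixon's test. Chance alone gives about 1 in 20 groups, so 10 is near the number that chance gives. Some of the 21 loci, MSTRG.4269 among them, were named after their spread between animals was seen. Both regions of an animal are also not independent groups. The flagged values are therefore listed as a description. Some stood apart in both wing regions of an animal or in more than 1 group: MSTRG.4269 in animal 10 (cyrbia, 70%), with 1106 CPM in the main wing and 1065 CPM in the anterior hindwing, and MSTRG.3617, with 322 CPM in the anterior hindwing of animal 1 (cyrbia, 50%; the others 49.0 to 91.9) and 204 CPM in the main wing of animal 8 (demophoon, 50%; the others 63.6 to 81.5).

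Animal 4 (cyrbia, 50%) stood above the others in the anterior hindwing at MSTRG.6091 with 193 CPM (the others 127 to 134) and at MSTRG.9411 with 132 CPM (86.2 to 91.6). MSTRG.19961 measured 1267 CPM in the anterior hindwing of animal 14 (demophoon, 70%; the others 159 to 306), and MSTRG.9541 measured 201 CPM in that of animal 9 (cyrbia, 70%; 74.7 to 94.3). MSTRG.10665 measured 33.7 CPM in the anterior hindwing of animal 5 (demophoon, 50%; 20.0 to 21.9). The summed share of the 40 loci was 0.228% in the anterior hindwing of animal 7 (demophoon, 50%), below the others at 0.246% to 0.248%.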

How the results depend on the processing

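None of 17 differences examined at 8 loci, those called, the subspecies counterparts in the other region and the region difference of MSTRG.5218 at 70%, changed direction. The counts of the 40 loci called moved with several of the settings. For subspecies in the main wing at 50%, 1 became 0 with library totals as scaling. At 70%, 2 became 1 with no filter and with library totals, and 0 with sex as a covariate. In the anterior hindwing at 50%, 0 became 1 with DESeq2, with library totals and when the fit held only the libraries of the stage. At 70%, 3 became 5 with DESeq2, 2 with library totals, 0 when only that stage's libraries were fitted and 1 with the sex covariate. For regions, DESeq2 gave 3 in cyrbia at 50%, 4 in cyrbia at 70% and 3 in demophoon at 70%, and RLE factors gave 2 in both subspecies at 70%. In demophoon at 50%, 1 became 0 with library totals and with only the libraries of the group. With no replicate block, so that the pairing of regions within an animal was ignored, the region counts were 0 in cyrbia at 70% and 0 in demophoon at 50% and at 70%. With each animal left out in turn, the counts ranged from 0 to 2 for subspecies in the main wing at both stages and in the anterior hindwing at 50%, and from 0 to 4 in the anterior hindwing at 70%. For regions they were 0 to 0 in cyrbia at 50%, 0 to 1 in cyrbia at 70%, 0 to 1 in demophoon at 50% and 1 to 1 in demophoon at 70%, for the interaction 0 to 1 at 50% and 0 to 0 at 70%, and for sex 0 to 0. The rule itself gave 42 loci with TMM-adjusted CPM, 35 of them shared, and 34 to 46 with an animal left out. The causes of these shifts were not tested. Library totals moved the median of all loci by -0.21 for subspecies in the main wing at 50%, -0.16 for regions in cyrbia at 50%, -0.14 for the interaction at 50% and 0.10 for sex, and by less than 0.1 elsewhere.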
